A study of Mus musculus with 6 samples.

Results

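The 8 loci described here hold the genes of the enzymes that write and remove DNA methylation and of their closest cofactors: Dnmt1, Uhrf1, Dnmt3a, Dnmt3b, Dnmt3l, Tet1, Tet2 and Tet3. Each locus was taken as the 500 kb bin that holds the transcription start site (TSS) of the gene in the GENCODE annotation of mm10, which gave 8 bins of the 4727 autosomal bins with values in all 3 conditions. The assay was Hi-C, in which cross-linked chromatin is cut with HindIII, ligated in dilute solution and sequenced, so that pairs of joined fragments report which parts of the genome lay near each other. The cells were C2C12, a line of myoblasts from injured thigh muscle of C3H mice, in 3 conditions with 2 biological replicates each. Myoblasts were harvested while they proliferated at low density (day 0), myotubes after differentiation to day 3, and AraC-treated myotubes on day 7 after 10 µg/ml AraC (cytosine arabinoside) had been present from day 3. No condition carried a genetic change. AraC is built into newly made DNA and kills dividing cells, and the day 3 myotube cultures still held undifferentiated myoblasts, so the drug, the loss of myoblasts and the additional days in culture cannot be told apart in a comparison of the day 3 and day 7 cultures.

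DNA methylation in mammals is set mainly on cytosines that precede guanines (CG). Dnmt1 copies the methylation of the parental strand onto newly replicated DNA, and Uhrf1 recognizes hemimethylated sites and recruits Dnmt1 to them, so both serve cells that replicate their DNA. Dnmt3a and Dnmt3b methylate new sites, Dnmt3l has no catalytic activity and stimulates them, and the dioxygenases Tet1, Tet2 and Tet3 oxidize methylcytosine as the opening step of its removal. Azacytidine, an inhibitor of DNA methylation, is known for turning fibroblasts into muscle cells.

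Each deposited matrix holds, for every pair of 500 kb bins, the correlation coefficient between the normalized interaction profiles of the 2 bins, in 1 matrix per condition pooled over replicates. No test between conditions was therefore possible, and the values below are descriptions of 3 pooled matrices with no replicate error. The first principal component (PC1) of the coefficients within a chromosome was computed for each bin and oriented so that gene-rich bins were positive. Positive values mark the A (active) compartment and negative values the B (inactive) compartment. Because the SD of PC1 over autosomal bins differed between conditions (myoblasts 0.859, myotubes 1.61, AraC-treated myotubes 1.36), PC1 was divided by that SD and is called scaled PC1. Beside each scaled PC1 stands the precision within a matrix, as the values from the odd-numbered and from the even-numbered partner bins alone, which are not biological replicates. The 8 loci were picked with scaled PC1, its change after AraC and the profile correlations of these matrices known, so none of those values is a test of the loci. Over 8 muscle loci, the median change in scaled PC1 from myoblasts to myotubes was 0.08, beside -0.01 over all bins with an SD of 0.26. The highest change among them was at the Titin (Ttn) bin (-0.15 in myoblasts, 1.43 in myotubes and 1.60 after AraC) and the lowest at the Myog bin (2.66, 2.53 and 2.53).

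The promoters of the loci whose bins moved furthest after AraC are printed because CG is the dinucleotide on which these enzymes act. All 8 genes matched RefSeq promoters (GRCm38.p6), with 15 annotated start sites in all. Each sequence is 300 bases long, most of it before a start site, written 5′ to 3′ on the strand of the gene, and capitals mark every CG. Dnmt1 has 3 such promoters on the minus strand. Those with the most and the fewest CG are shown, at chr9:20952574-20952873 (33 CG) and chr9:20959839-20960138 (2 CG, at the start site that placed the locus), and the third lies at chr9:20952930-20953229 (12 CG). Uhrf1 has 2 on the plus strand, of which the one with more CG is shown, at chr17:56304063-56304362 (33 CG). The other, at chr17:56303087-56303386 (12 CG), holds the start site that placed the locus. The Dnmt3b promoter lies on the plus strand at chr2:153649199-153649498 (30 CG).
Dnmt1 promoter with 33 CG: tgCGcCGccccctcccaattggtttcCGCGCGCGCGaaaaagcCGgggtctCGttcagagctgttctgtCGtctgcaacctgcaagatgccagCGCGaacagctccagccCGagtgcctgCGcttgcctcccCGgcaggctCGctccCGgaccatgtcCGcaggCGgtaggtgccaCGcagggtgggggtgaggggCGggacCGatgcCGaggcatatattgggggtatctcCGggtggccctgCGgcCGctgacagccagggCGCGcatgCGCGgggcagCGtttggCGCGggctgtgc
Dnmt1 promoter with 2 CG: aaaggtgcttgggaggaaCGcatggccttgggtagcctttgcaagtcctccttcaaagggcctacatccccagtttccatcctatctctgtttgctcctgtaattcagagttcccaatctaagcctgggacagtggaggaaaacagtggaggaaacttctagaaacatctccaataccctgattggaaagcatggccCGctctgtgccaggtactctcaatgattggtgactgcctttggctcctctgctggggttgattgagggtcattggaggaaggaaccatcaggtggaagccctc
Uhrf1 promoter with 33 CG: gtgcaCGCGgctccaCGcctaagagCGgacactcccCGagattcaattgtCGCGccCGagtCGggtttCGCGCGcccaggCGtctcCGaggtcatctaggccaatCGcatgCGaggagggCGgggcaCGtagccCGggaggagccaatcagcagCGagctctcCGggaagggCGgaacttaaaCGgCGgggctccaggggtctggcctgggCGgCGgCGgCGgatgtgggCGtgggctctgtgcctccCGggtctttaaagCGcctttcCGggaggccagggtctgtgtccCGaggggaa
Dnmt3b promoter: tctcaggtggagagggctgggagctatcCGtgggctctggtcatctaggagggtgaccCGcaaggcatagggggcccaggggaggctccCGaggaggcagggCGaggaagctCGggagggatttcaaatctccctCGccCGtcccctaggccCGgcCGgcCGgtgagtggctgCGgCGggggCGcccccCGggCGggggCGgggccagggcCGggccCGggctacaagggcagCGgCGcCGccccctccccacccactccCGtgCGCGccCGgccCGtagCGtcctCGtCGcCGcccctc

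Over all 32851 RefSeq promoters of this length, 94.6% held at least 1 CG (the letters CG read the same on both strands) and the median was 7. The members' promoters ranged from 2 CG at a Dnmt1 start site to 57 CG at the Tet2 promoter. The start sites of Dnmt1 lie in the same 500 kb bin, as do those of Uhrf1, so the matrices cannot separate them. Nor do the matrices measure methylation.

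The Dnmt1 bin (chr9:20500001-21000000) was in the A compartment in myoblasts and myotubes and in the B compartment in AraC-treated myotubes. Its scaled PC1 was 0.58 in myoblasts (odd and even partner bins 0.50 and 0.66), 0.47 in myotubes (0.45 and 0.49) and -0.19 after AraC (-0.17 and -0.20). The value after AraC was nearer to 0 under some alternatives. It was -0.01, at the boundary, with the component taken from other autosomes, and -0.12 with columns not centred. From myotubes to AraC-treated myotubes scaled PC1 was lower by 0.66 SD units, and none of the other 4726 bins had a lower change. This first place was narrow (-0.6586 beside -0.6585 for the adjoining downstream bin). Under the alternatives 0 to 86 bins had a lower change than the Dnmt1 bin. The median change over all bins was -0.01 with an SD of 0.18. Odd and even partner bins alone gave -0.62 and -0.69, so the difference between these estimates was small beside the change itself. That difference, 0.0696, was nevertheless above the 95th percentile over all bins (0.0637, median 0.0212). Both estimates rest on the same reads of the bin. From myoblasts to myotubes the change of the Dnmt1 bin was -0.11, and 1447 bins had a lower one.

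**Figure D1:**
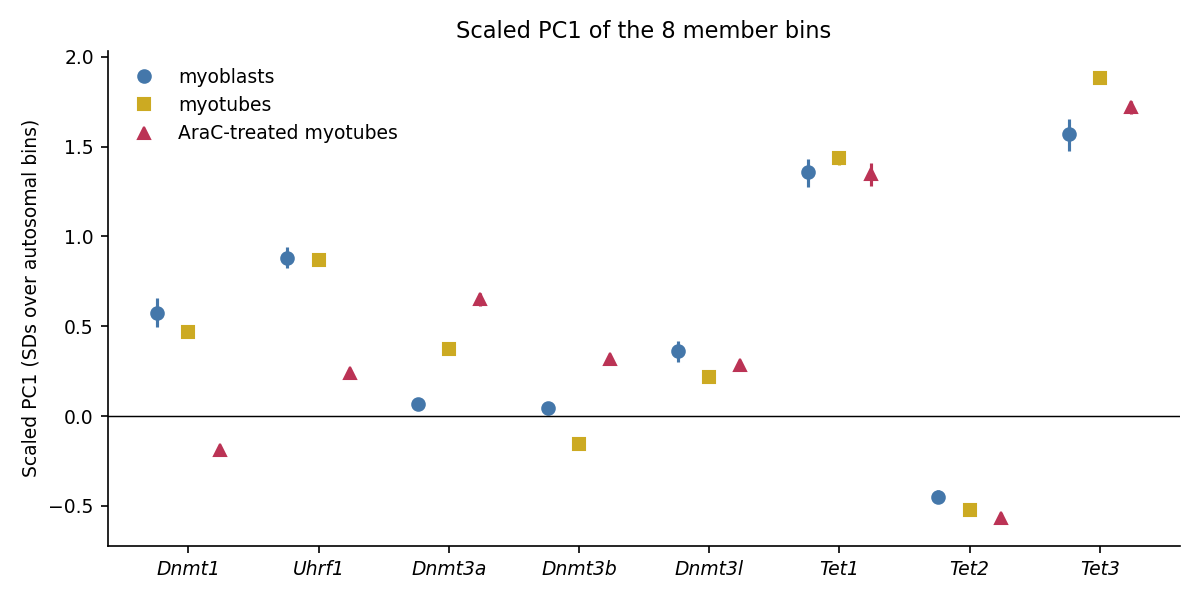
Scaled PC1 of the 8 member bins (y axis, in SDs over autosomal bins) in myoblasts (circles), myotubes (squares) and AraC-treated myotubes (triangles). Vertical lines join the values from odd-numbered and even-numbered partner bins. The Dnmt1 bin goes from 0.47 in myotubes to -0.19 in AraC-treated myotubes and the Uhrf1 bin from 0.87 to 0.24, while the Tet1 and Tet3 bins are at 1.35 or above in all conditions.

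The bin holds 14 protein-coding start sites, more than in 93.2% of autosomal bins. The Dnmt1 gene (ENSMUSG00000004099.16, chr9:20907209-20959888, minus strand) lies wholly within it, with its annotated start 40.1 kb from the distal edge. Other genes of the bin include Zfp266, Zfp846, Ubl5, Fbxl12, Olfm2, Col5a3, Rdh8, A230050P20Rik, Angptl6, Ppan, Eif3g and S1pr2. Eif3g encodes a subunit of a translation initiation factor and S1pr2 a receptor for sphingosine-1-phosphate. Since the value belongs to the whole bin, it cannot be assigned to Dnmt1 rather than to these neighbours.

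The Dnmt1 bin lay at the edge of an A domain. The 4 bins upstream of it were deep in B in every condition, between -0.89 and -1.14, and the change of the nearest one after AraC was -0.04. The next bin downstream (chr9:21000001-21500000, 22 start sites) had values of 1.73, 1.75 and 1.09 in myoblasts, myotubes and AraC-treated myotubes. Its change after AraC, -0.66, was the lowest but 1 of all bins. Changes of -0.46, -0.33 and -0.10 followed in the next 3 bins downstream. Changes beyond 1 SD of all bins (0.18) were also found further downstream, at 2.5, 3, 3.5 and 4.5 Mb (-0.20, -0.20, -0.24 and -0.21), and at 4.5 Mb upstream (-0.30). The 4 bins just upstream had changes between -0.12 and -0.00316.

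**Figure D2:**
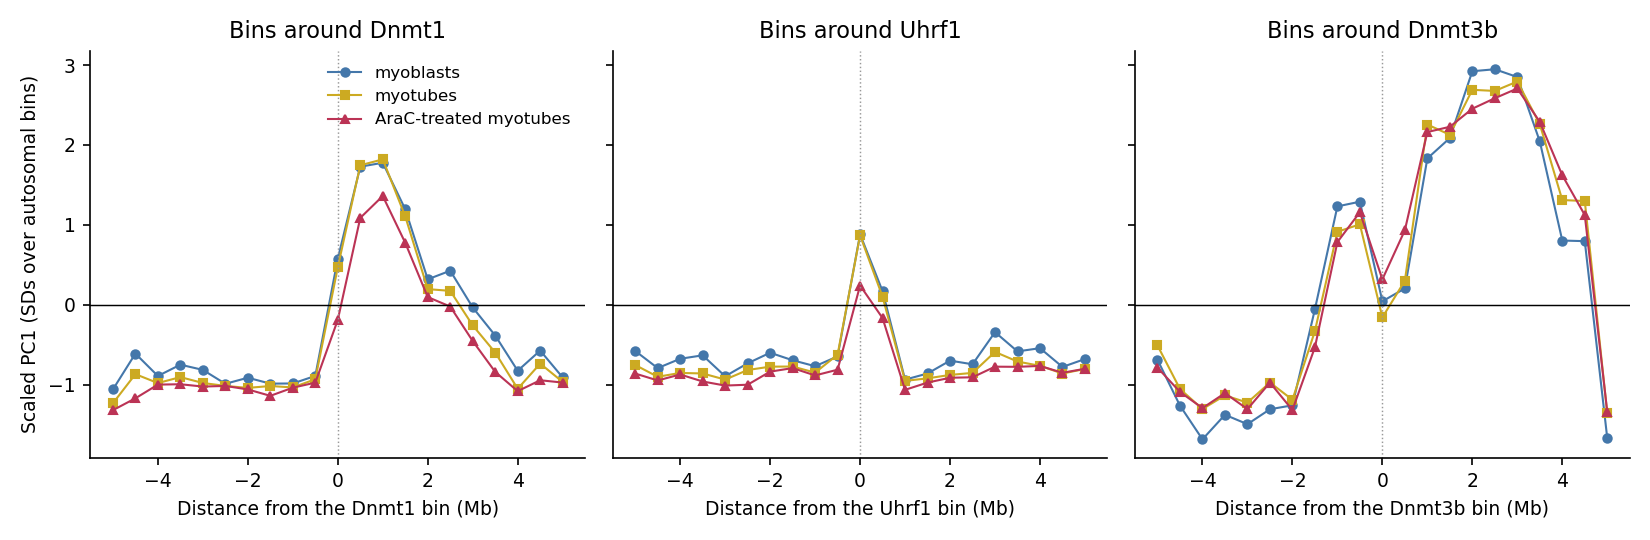
Scaled PC1 (y axis, in SDs over autosomal bins) of the bins within 5 Mb of the Dnmt1, Uhrf1 and Dnmt3b bins, against the distance from that bin (x axis, in Mb). The Dnmt1 bin sits at the left edge of a peak that is lower in AraC-treated myotubes (triangles) than in the other conditions, the Uhrf1 bin is the top of a narrow peak between B bins, and the Dnmt3b bin lies in a dip between A bins that is shallower after AraC.

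The interaction profile of the Dnmt1 bin was compared between conditions as Pearson's r over the other bins of chromosome 9. Between myoblasts and myotubes r was 0.740. Against the AraC-treated myotubes it was 0.175 for myoblasts and 0.164 for myotubes. The median over all bins was 0.947 for the last pair, and 111 bins (2.35%) had a lower value. Over all other autosomal bins of the genome in place of chromosome 9 the last value was 0.539. On chromosome 9 beyond 2 Mb, the mean coefficient of the Dnmt1 bin with the 65 bins that stayed in A was 0.0577 in myoblasts, 0.0692 in myotubes and -0.000135 after AraC. With the 124 bins that stayed in B it was 0.000635, -0.0201 and 0.0156. The bin thus had a higher mean coefficient with A than with B bins in myoblasts and myotubes, and a slightly lower one after AraC.

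The best partner of a bin was the bin over 10 Mb away on its chromosome with the highest coefficient. This is the bin with the most similar interaction profile, not a measured contact. For the Dnmt1 bin it also differed between conditions. In myoblasts the highest coefficient, 0.132, was with chr9:44000001-44500000, a bin with 26 start sites and a scaled PC1 of 1.92. In myotubes it was 0.129 with the adjoining chr9:44500001-45000000, which holds 13 start sites and the T cell receptor genes Cd3d and Cd3g. In AraC-treated myotubes it was 0.0872 with chr9:35000001-35500000, which had a scaled PC1 of -0.27. That bin holds 8 start sites, among them those of Cdon, Dcps, Fam118b and Foxred1. Coefficients with the first downstream neighbour were 0.118, 0.158 and 0.0855 in the same order of conditions.

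The coefficients with other chromosomes were not used by PC1, although the coefficients of a bin with its own and with other chromosomes rest on the same reads of that bin. For each bin, the mean coefficient with the A bins of the 18 other autosomes minus that with the B bins was taken as its A minus B preference, using the 1478 bins that were in A and the 2713 that were in B in all conditions. The preference of the Dnmt1 bin was 0.0696 in myoblasts, 0.104 in myotubes and 0.0183 after AraC. Divided by the SD over autosomal bins (0.0767, 0.167 and 0.137), these were 0.91, 0.62 and 0.13. The scaled change after AraC was -0.49, and 4 bins had a lower one. Unlike PC1, the preference stayed above 0 in AraC-treated myotubes. Taken against each of the 18 other autosomes separately, it was lower after AraC on 18 of 18, with changes between -0.58 and -0.42. Of all bins, 27.1% were lower on every other autosome in this comparison, and across bins the change in preference followed that in scaled PC1 (Pearson's r 0.954 over 4727 bins, which share the same matrices and are not independent). The low preference change therefore goes with the low PC1 change for which the bin was known, and is not separate support for it.

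The 3 bins of other chromosomes with the most similar scaled PC1 over the 3 conditions were chosen by Euclidean distance. Nearest was chr1:45000001-45500000 (distance 0.20), whose single protein-coding start site is that of Col3a1, a fibrillar collagen, with 0.69, 0.47 and -0.03. A bin without protein-coding start sites at chr8:49000001-49500000 had 0.41, 0.39 and -0.11. The bin at chr16:57000001-57500000, with 6 start sites including Tomm70a, an import receptor of mitochondria, had 0.45, 0.33 and -0.07.

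Uhrf1, the partner of Dnmt1 in maintenance methylation, lay in the bin with the third lowest change. The Uhrf1 bin (chr17:56000001-56500000) had a scaled PC1 of 0.88 in myoblasts (odd and even partner bins 0.94 and 0.82), 0.87 in myotubes (0.90 and 0.84) and 0.24 after AraC (0.25 and 0.24). The change from myotubes to AraC-treated myotubes was -0.63, below all but 2 bins, namely the Dnmt1 bin and its downstream neighbour. From myoblasts to myotubes the change was -0.01. Unlike the Dnmt1 bin, the Uhrf1 bin stayed in A after AraC. The bin holds 20 start sites, those nearest to Uhrf1 (ENSMUSG00000001228.14, chr17:56303321-56323486, plus strand) being Arrdc5, Plin3, Kdm4b and Ticam1.

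The Uhrf1 bin was the top of a narrow A peak. Its upstream neighbour had -0.65, -0.62 and -0.81 in the 3 conditions, and its downstream neighbour 0.17, 0.10 and -0.17. After AraC the changes of these neighbours were -0.19 and -0.27. Profile correlation of the Uhrf1 bin over chromosome 17 was 0.929 between myoblasts and myotubes. Against the AraC-treated myotubes it was 0.748 for myoblasts and 0.849 for myotubes. These values were higher than those of the Dnmt1 bin, which lay nearer to 0 in scaled PC1 in every condition. The downstream neighbour of the Dnmt1 bin, with a change of -0.66, had 0.981 between myotubes and AraC-treated myotubes. The part of nearness to 0 in the profile correlations was not tested. The best partner of the Uhrf1 bin over 10 Mb away was an A bin in each condition. It was chr17:35000001-35500000 in myoblasts (coefficient 0.138), chr17:24000001-24500000 in myotubes (0.231) and chr17:35500001-36000000 in AraC-treated myotubes (0.137).

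On other autosomes the Uhrf1 bin had a scaled preference of 1.11 in myoblasts, 1.05 in myotubes and 0.52 after AraC. Its change after AraC, -0.53, was exceeded downwards by 2 bins. It was lower on 18 of 18 other autosomes, with changes between -0.61 and -0.45. As for the Dnmt1 bin, this follows the PC1 change and is a description. Between myoblasts and myotubes the changes in scaled preference were -0.28 for Dnmt1 (24.6% of bins lower) and -0.06 for Uhrf1 (71.7% of bins lower).

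**Figure D3:**
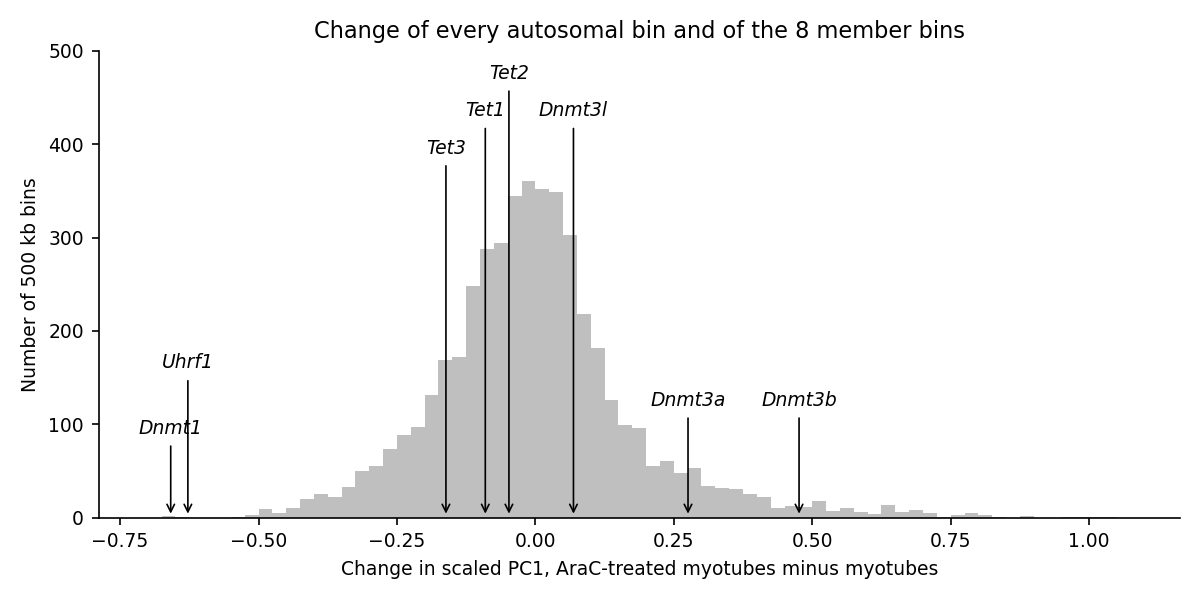
Histogram of the change in scaled PC1 from myotubes to AraC-treated myotubes (x axis, in SDs over autosomal bins) of the 4727 autosomal bins (y axis, number of bins). Arrows mark the 8 member bins. Dnmt1 (-0.66) and Uhrf1 (-0.63) lie at the left end, the 3 Tet bins and Dnmt3l within the bulk, and Dnmt3a (0.28) and Dnmt3b (0.48) in the right tail.

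Both bins are rich in genes and in G and C. The Dnmt1 bin had a GC content of 47.8% (above 92.4% of bins) and the Uhrf1 bin 52.4% (above 99.8%), against a median of 41.7%. Change after AraC moved with gene number: its median was 0.01 in the 1148 bins without a protein-coding start site and -0.06 in the 274 bins with 15 or more, of which 66.4% were lower. In the class of 10 to 14 start sites, to which the Dnmt1 bin belongs, the median was -0.04 and the 5th percentile -0.30. Across all bins Spearman's rho with the change was -0.10 for the number of start sites and -0.01 for GC content. HindIII sites, at which the method can join fragments, numbered 114 in the Dnmt1 bin and 111 in the Uhrf1 bin against a median of 162. Only 2.43% and 1.80% of bins had fewer. The Dnmt3l, Tet1, Dnmt3a and Dnmt3b bins were also poor in sites, with 1.48%, 3.87%, 6.22% and 6.58% of bins having fewer. For the Tet2 and Tet3 bins these shares were 51.0% and 31.1%. The rho of the number of HindIII sites with the change was also -0.01. Because the change is signed, this rho cannot show whether bins with few sites had larger changes in both directions. The part of gene number and of HindIII sites in the changes of these bins was not tested.

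The de novo methyltransferases had the opposite direction. The Dnmt3a bin (chr12:3500001-4000000, 3 start sites, also holding Pomc and Dtnb) had a scaled PC1 of 0.07 in myoblasts, 0.37 in myotubes and 0.65 after AraC. It was in A throughout (without centring of the matrix columns before PC1 was computed, it was in B in myoblasts, at -0.26), with changes of 0.31 from myoblasts to myotubes and 0.28 from myotubes to AraC-treated myotubes. Of all bins, 93.0% had a lower change in the latter comparison. The upstream neighbour had 0.24, 0.41 and 0.46, and the 2 bins downstream, which were higher in myotubes than in myoblasts by 0.31 and 0.52, were lower after AraC by 0.04 and 0.16. The increase after AraC thus belonged to the Dnmt3a bin more than to its neighbours.

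Its profile over chromosome 12 differed most between the ends of the series. Profile correlation was 0.299 between myoblasts and myotubes. Against the AraC-treated myotubes it was -0.0734 for myoblasts and 0.707 for myotubes. The authors read a value below 0 as a region with different partners in 2 conditions. That of the Dnmt3a bin was only just below 0, and its scaled PC1 in myoblasts was near 0 as well (0.07). A change of partners therefore cannot be told apart from a weak profile in myoblasts. From myoblasts to AraC-treated myotubes a value below 0 occurred in 1 of the 8 member bins (5.80% of all bins). It occurred in none from myoblasts to myotubes (3.26%) or from myotubes to AraC-treated myotubes (1.16%). The best distant partner of the Dnmt3a bin was a bin near 0 in myoblasts (chr12:17500001-18000000, scaled PC1 -0.02, holding Odc1 and Hpcal1) and A bins later, at chr12:87000001-87500000 in myotubes and chr12:52500001-53000000 in AraC-treated myotubes. On other autosomes the scaled preference was 0.13, 0.24 and 0.58, and it was higher after AraC on 18 of 18 (36.1% of all bins were), by 0.28 to 0.38.

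The Dnmt3b bin (chr2:153500001-154000000) was close to the boundary of the compartments in all conditions. Its scaled PC1 was 0.04 in myoblasts, -0.16 in myotubes and 0.32 after AraC, and odd and even partner bins differed by 0.03, 0.01 and 0.01. The change after AraC, 0.48, was above that of 97.7% of bins. The 12 start sites of the bin include Dnmt3c, the rodent copy of Dnmt3b that acts in male germ cells, with Commd7, Mapre1 and Nol4l among those nearest to Dnmt3b. The downstream neighbour had a still higher change, 0.63, from 0.30 in myotubes to 0.93 in AraC-treated myotubes. The upstream neighbour was an A bin, with 1.29, 1.01 and 1.16, and so was the bin at 1 Mb downstream, with 1.83, 2.26 and 2.16.

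Profile correlation of the Dnmt3b bin over chromosome 2 was 0.455 between myoblasts and myotubes, and the AraC-treated myotubes had 0.527 with myoblasts and 0.347 with myotubes. The best distant partner was a strong B bin in myotubes (chr2:178000001-178500000, scaled PC1 -1.63, coefficient 0.123) and a strong A bin in AraC-treated myotubes (chr2:165000001-165500000, 1.90, coefficient 0.160). On other autosomes the scaled preference was 0.17 in myoblasts, -0.23 in myotubes and 0.12 after AraC. It was lower on 18 of 18 other autosomes from myoblasts to myotubes, as were 62.1% of all bins, and higher on 18 of 18 from there to AraC-treated myotubes, as were 36.1%.

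Dnmt3l, the cofactor of Dnmt3a and Dnmt3b, lay in a bin (chr10:78000001-78500000, 11 start sites) that stayed in A near the boundary, except that with columns not centred it was at -0.02 in myotubes. Its scaled PC1 was 0.36, 0.22 and 0.28, and the change after AraC, 0.07, was below the SD of all bins (0.18). Its profile correlations were nevertheless low, 0.361 between myoblasts and myotubes, 0.432 between myoblasts and the AraC-treated cells and 0.334 for the remaining pair, which was above only 3.79% of bins. On other autosomes the scaled preference was 0.49 in myoblasts, 0.06 in myotubes and 0.15 after AraC.

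Tet1 and Tet3 lay in A and Tet2 in B in every condition, and their changes after AraC were within the SD of 0.18 over all bins except for Tet3 under 3 alternatives. Tet3 was deepest in A: its bin (chr6:83000001-83500000, 23 start sites, with Bola3, Mob1a and Mthfd2 nearest) had 1.57 in myoblasts, 1.88 in myotubes and 1.72 after AraC. The Tet1 bin (chr10:62500001-63000000, 10 start sites, with Slc25a16, Dna2 and Rufy2 nearest) had 1.36, 1.44 and 1.35. The Tet2 bin (chr3:133500001-134000000) held no other protein-coding start site and was in B throughout, at -0.45, -0.52 and -0.57. The Tet2 gene extends from its start into the preceding bin, where the values were -0.55, -0.55 and -0.52. After AraC the changes of the Tet1, Tet2 and Tet3 bins were -0.09, -0.05 and -0.16. That of Tet3 was -0.23 with columns scaled to unit variance, -0.21 with the component taken from other autosomes and -0.25 when scaled within its chromosome.

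Profiles of the Tet bins were the most stable of the 8 between myotubes and AraC-treated myotubes, with r of 0.976 for Tet1, 0.916 for Tet2 and 0.976 for Tet3. The best distant partner of Tet1 was the same bin in every condition, chr10:80000001-80500000, with coefficients of 0.212, 0.293 and 0.210. Tet3 likewise kept chr6:29500001-30000000, at 0.160, 0.351 and 0.242. The distant partners of Tet2 were B bins of chromosome 3 between 20.0 and 24.0 Mb away. On other autosomes the Tet1 and Tet3 bins preferred A bins in every condition, with scaled preferences between 1.27 and 1.67, and the Tet2 bin preferred B bins, between -0.82 and -0.75. These were small changes by the side of those of the maintenance loci: between myotubes and AraC-treated myotubes -0.11, -0.02 and -0.17 for Tet1, Tet2 and Tet3.

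**Figure D4:**
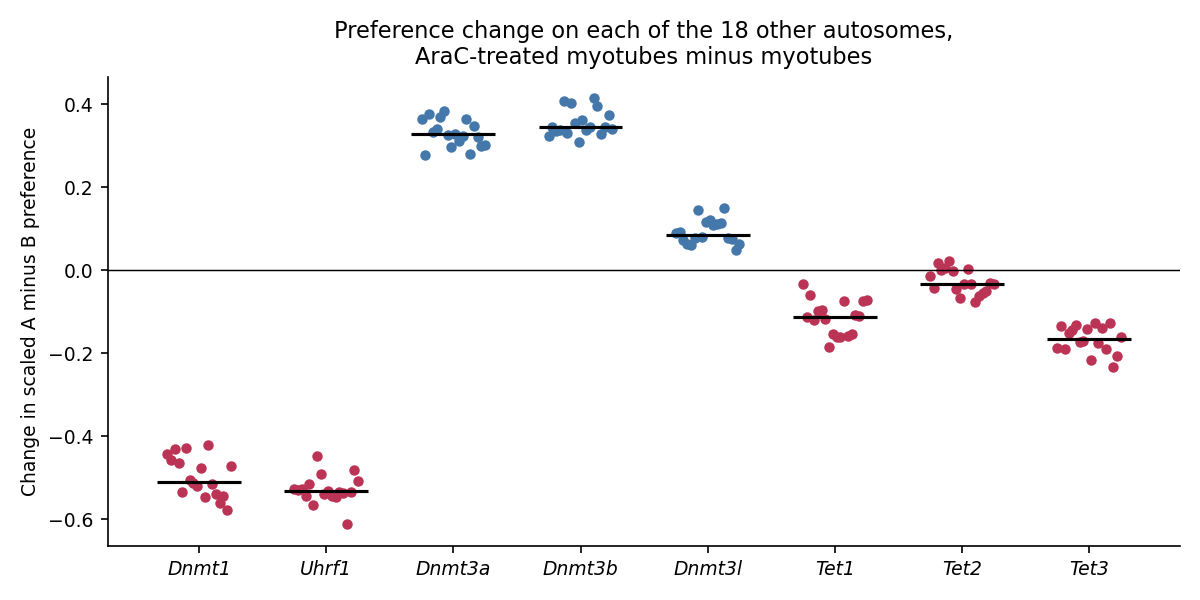
Change in scaled A minus B preference from myotubes to AraC-treated myotubes (y axis, in SDs over autosomal bins) against each of the 18 other autosomes (points) for the 8 member bins. Horizontal bars are medians, and red and blue mark medians below and above 0. All points of Dnmt1 and Uhrf1 lie below -0.42 and all points of Dnmt3a and Dnmt3b at or above 0.28.

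By the sign of PC1, 1 of 8 member bins (Dnmt3b) went from A to B between myoblasts and myotubes (4.55% of all bins) and none from B to A (2.77%). The Dnmt3b switch between myoblasts and myotubes was lost with columns not centred before the component was computed, where the bin was in B in both (-0.12 and -0.38), while Dnmt3a then went from B to A and Dnmt3l from A to B. After AraC, relative to myoblasts, 1 bin (Dnmt1) had gone from A to B (6.52%) and none the other way (3.72%). Relative to myotubes, Dnmt1 had gone from A to B (3.07%) and Dnmt3b the other way (2.05%). With the component taken from other autosomes the Dnmt1 bin was only at -0.01 after AraC. Lower scaled PC1 after AraC than in myotubes was seen in 5 of 8 bins (Dnmt1, Uhrf1, Tet1, Tet2 and Tet3) beside 53.0% of all bins, so the count of lower bins was near the background. The median change of the 8 bins was -0.07 beside -0.01 for all bins. On all 18 other autosomes the scaled preference was lower in 4 of 8 bins (Dnmt1, Uhrf1, Tet1 and Tet3) and higher in 3 (Dnmt3a, Dnmt3b and Dnmt3l), beside 27.1% and 36.1% of all bins.

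Correlation coefficients between the member bins themselves describe whether the loci share interaction partners. Of the 28 pairs, 27 lie on different chromosomes, and their mean coefficient was 0.0180 in myoblasts, 0.0273 in myotubes and 0.0190 after AraC, beside 0.00526, 0.00743 and 0.00306 over all pairs of autosomal bins on different chromosomes. The SDs over all such pairs were 0.0446, 0.0889 and 0.0731, larger than these means. Coefficients above 0 were found in 16, 16 and 19 of the 27 pairs, beside 57.1%, 58.4% and 56.1% of all pairs. These backgrounds are not matched for compartment. Most member bins were in A in each condition, beside 38.3% of all bins in myoblasts, 36.5% in myotubes and 35.5% after AraC. The part of compartment in the higher means was not tested. The highest was that of Tet1 with Tet3, at 0.124, 0.223 and 0.157, or 2.78, 2.50 and 2.14 relative to the SD over all pairs. Dnmt1 with Uhrf1 had 0.0848 in myoblasts, 0.166 in myotubes and 0.0575 after AraC. Relative to the SD over all pairs, Dnmt1 with Uhrf1 had 1.90, 1.87 and 0.79, so that this pair was lower after AraC than in either other condition. Both bins were known for their low PC1 change after AraC. The lower coefficient is therefore a description and not a separate result. The Tet2 bin had negative coefficients with the Tet1 bin (-0.0614, -0.0868 and -0.0605) and with the Tet3 bin (-0.0435, -0.0957 and -0.0756), and lay in the opposite compartment.

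**Figure D5:**
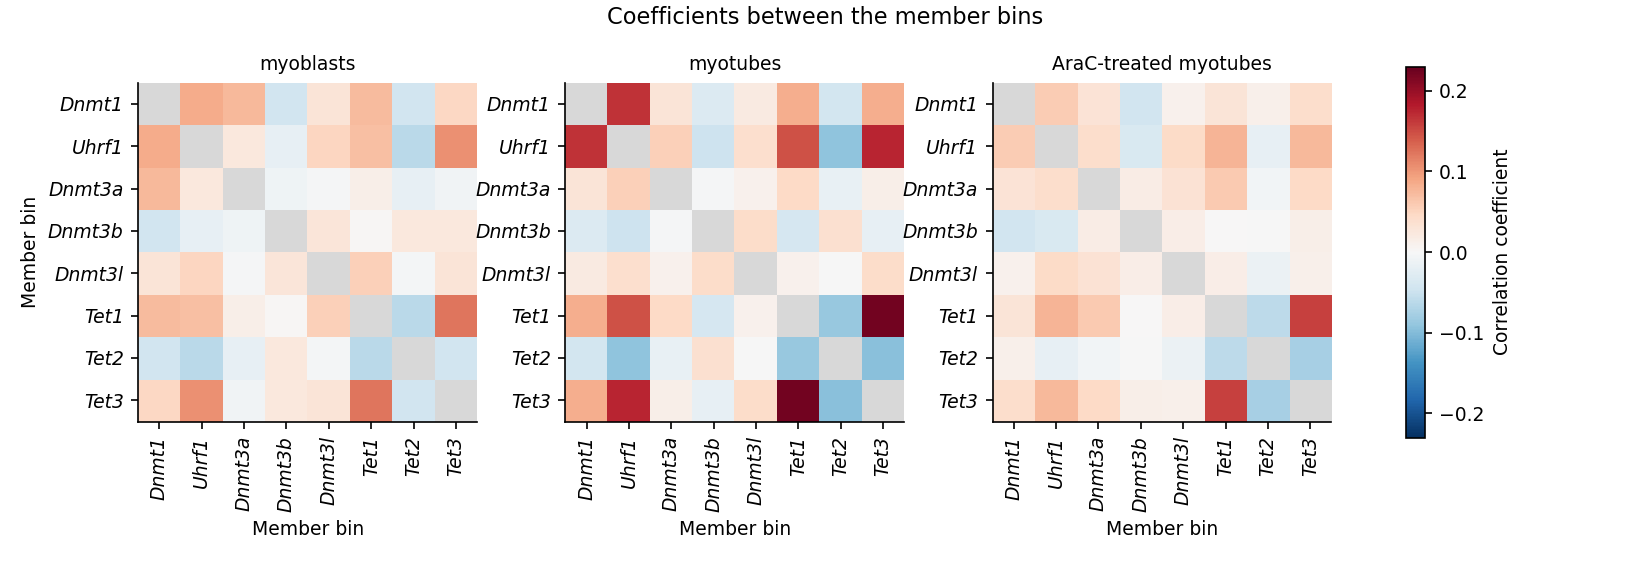
Correlation coefficients between the interaction profiles of the 8 member bins (both axes) in myoblasts, myotubes and AraC-treated myotubes, with red above and blue below 0 and the bin with itself in grey. The Tet1 with Tet3 and Uhrf1 with Tet3 pairs have their highest coefficients in myotubes (0.223 and 0.174), where all coefficients spread most, but relative to the SD over all pairs they are highest in myoblasts (2.78 and 2.37), and the Dnmt1 row is paler after AraC.

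Other genes of the pathway were taken from 6 lists with 50 entries, of which 45 had autosomal values in 43 bins. Between myotubes and AraC-treated myotubes scaled PC1 was lower for 32 and higher for 13, with a median change of -0.10. Of all bins 53.0% were lower, with a median of -0.01. That background is not matched for gene number. The share lower was 46.6% in bins without a protein-coding start site, 61.4% with 10 to 14 and 66.4% with 15 or more. None of the 45 had a change as low as that of the Dnmt1 or Uhrf1 bin. Among readers of methylated CG, 6 of 9 were lower (median -0.20), with the extremes at Zbtb38 (-0.33), a zinc finger protein that binds methylated DNA, and Mbd5 (0.31), which moved from -0.26 in B to 0.04 in A. Among genes that repair demethylated bases 6 of 9 were lower (median -0.10). Tdg, the glycosylase that excises oxidized methylcytosine, had the highest change (0.42, from 0.87 to 1.29), and Gadd45a the lowest (-0.32, from 0.06 in A to -0.26 in B).

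Partners of the methyltransferases in chromatin were lower in 9 of 10 (median -0.08), from Ezh2 (-0.28), the histone methyltransferase of Polycomb repressive complex 2, to Hells (0.11), a chromatin remodeller needed for DNA methylation. The supply of methyl groups gave 7 of 10 lower (median -0.09), from Gnmt (-0.41), which consumes S-adenosylmethionine, to Mthfd1 (0.27), an enzyme of folate metabolism. Genes for cofactors and partners of the Tet enzymes gave 3 of 5 lower (median -0.04), from Idh2 (-0.23) to Idh3a (0.22), both dehydrogenases that make 2-oxoglutarate. Trdmt1, a tRNA methyltransferase of the Dnmt family, changed by -0.10, and Dnmt3c shares the Dnmt3b bin.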

How the data were processed

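C2C12 Hi-C libraries were analysed from 3 matrices, 1 per condition. According to the methods and per the labels, the authors mapped reads to mm10 in HiCUP with Bowtie, kept unique di-tags, pooled 2 replicates per condition and normalized interactions in HOMER. The deposited values are score values, namely Pearson correlation coefficients of the interaction profiles of 500 kb bins, which carry no read depth, so precision is given only by odd and even partner bins. Bins of chromosomes X, Y and M (525 of 5455) were left out. No column lacked a condition. PC1 was computed per autosome with columns centred and not scaled, oriented by GENCODE vM21 start sites, and divided by its SD over 4727 bins. Steps were tested on simulated matrices with known compartments. The members, lists, alternatives and rules for naming genes (all genes of the Dnmt1 bin, of which 1 is not reported here, at most 4 neighbours of other members, 3 nearest bins, distant partners beyond 10 Mb, up to 3 genes per list) were chosen with earlier results of these data known. Promoters came from RefSeq GRCm38.p6, and all 4930 autosomal bins of the matrices exist in that genome. Alternatives changed 1 step at a time. Computations ran in Python 3.11.15 with NumPy 2.4.6 and SciPy 1.17.1, and plots were drawn with Matplotlib 3.10.9.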

Additional observations from a re-analysis of the deposited data

How the results depend on the processing

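No paired analysis was possible because the replicates were pooled before deposit, and for the same reason no replicate could be left out. The direction of the change after AraC was the same in all 8 member bins under 8 of 8 alternatives. The change of the Dnmt1 bin was -0.53 with columns not centred and -14.8 percentage points as a rank of PC1, and 0 to 86 bins had a lower change than it under the 8 alternatives (0 to 183 for Uhrf1). The profile correlation of the Dnmt1 bin was 0.0972 without bins within 2 Mb and 0.539 over all other autosomal bins. Its change in preference was -0.0862 as measured, -0.101 with strongly placed A and B bins only, and -0.49 when divided by the SD over bins, a setting added after the data were seen. With columns not centred 4 member bins changed sign in place of 2, the others being Dnmt3a (-0.26 in myoblasts) and Dnmt3l (-0.02 in myotubes), and the Dnmt3b bin no longer changed sign between myoblasts and myotubes (-0.12 and -0.38). Divided by the SD of coefficients between autosomes, the mean over member pairs was 0.403 in myoblasts, 0.307 in myotubes and 0.261 after AraC, an order in which myoblasts and not myotubes were highest. The causes were not tested. The matrices give no read numbers, so changes of bins with few reads cannot be weighted.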
